A study of Mus musculus with 12 samples.

Results

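Sham-operated mouse hearts made up 4 of the 12 samples of a study on agrin after myocardial infarction. They were taken by their treatment label, as sham replicates 2, 3, 4 and 5, and the 4 MI+Agrin and 4 MI+PBS hearts, whose left anterior descending artery had been tied off for good, were not used here. All animals were wild-type females of 12 weeks, and the series describes 4 animals per group, so the spread between the sham libraries is one between separate animals. Per the labels, animals were sedated with isoflurane, ventilated through the trachea and given buprenorphine after the chest was closed, and RNA was taken 2 weeks after infarction. The sources used here do not give the strain, the region of the heart that was homogenized or the time of day at sampling. Poly-A RNA was read as 61 bp single reads, and the deposited values are normalized read counts per gene.

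The adult heart is a muscle that never rests. Cardiomyocytes fill most of its volume with sarcomeres, in which myosin pulls on actin under the control of troponin and tropomyosin, and with mitochondria, which burn mainly fatty acids. Calcium released from the sarcoplasmic reticulum starts each beat and is pumped back by SERCA under the brake of phospholamban. In number, endothelial cells, fibroblasts, mural cells and resident macrophages exceed the cardiomyocytes. In mice, the ventricle of the adult uses alpha myosin heavy chain (Myh6), whereas the beta form (Myh7) prevails before birth.

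The table held 16218 genes. Between 20238512 and 22513413 reads per library could be recovered from it, and 15799 to 15891 genes were detected in each heart. Averaged over the hearts, 14829 genes had at least 5 normalized counts and 12198 had at least 50, while 126 were at 0 in all 4. Across the 12198 genes, Pearson's r of log2 values between hearts ran from 0.987 to 0.990 over the 6 pairs, with genes that are not independent replicates, and between 81 and 137 genes differed by more than 2-fold within a pair. Levels are compared between genes only as TPM, for which each normalized count is divided by the gene's exon length and each library is scaled to the same sum. Xist, the RNA that silences one X chromosome in females, stood at 96.6, 93.8, 90.7 and 92.1 TPM in sham replicates 2, 3, 4 and 5, and the Y-linked Ddx3y, Eif2s3y, Kdm5d and Uty were at 0 in every library.

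By normalized counts, Myh6 was the highest gene in the hearts. It had 598155, 585300, 711982 and 603093 normalized counts in sham replicates 2, 3, 4 and 5, or 2.83% of a library on average. Sham replicate 4 stood above the other hearts, which lay close together. The calcium pump Atp2a2 followed with a mean of 405875 normalized counts, then myoglobin (Mb) with 278273 and cardiac actin (Actc1) with 240550. The remaining genes of the 20 highest were Tnnt2, Pln, Tpm1, Myl2, Atp5b, Lpl, Ttn, Atp5a1, Myl3, Slc25a4, Mybpc3, Tnni3, Ogdh, Pde4dip, Gsn and Hspb7. They include genes of sarcomere proteins, phospholamban (Pln), subunits of the ATP synthase, the citric acid cycle enzyme Ogdh, the exchanger of ADP for ATP (Slc25a4), lipoprotein lipase and a small heat shock protein of muscle (Hspb7). Each had between 67060 and 181909 normalized counts.

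Length changed this order. Per kilobase, Mb came first, at 24252, 23005, 24581 and 23524 TPM in sham replicates 2, 3, 4 and 5. Actc1 averaged 19849 ± 735 TPM, Tnnt2 17485 ± 1048 TPM, Myl2 15226 ± 1277 TPM, Tnni3 12461 ± 558 TPM and Myh6 12402 ± 808 TPM (SD, n = 4 throughout). Tnni3, Myh6 and Myl3, with 12101 ± 578 TPM, differed by less than their spread between hearts. Titin (Ttn), the giant spring of the sarcomere and the 11th gene by counts, had only 138 TPM. Short transcripts moved up instead: troponin C (Tnnc1) averaged 9546 TPM, atrial natriuretic peptide (Nppa) 7191 TPM, and the oxidase subunits Cox6a2 and Cox4i1 5383 and 5110.1 TPM. Exons of Nppa, Pln and Mb overlap a gene on the opposite strand over 61.5%, 59.6% and 33.6% of their bases, and the strand setting of the counting is not given, so these 3 levels are uncertain.

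**Figure D1:**
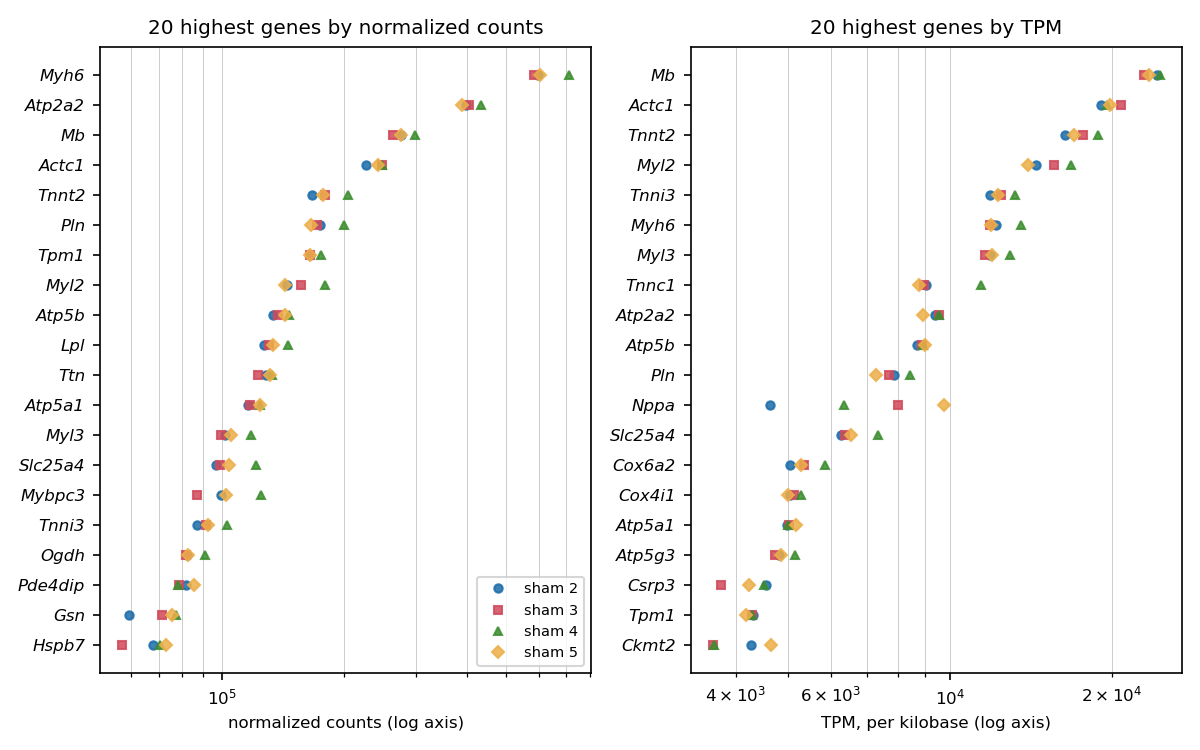
The 20 highest genes by mean normalized counts (left) and by mean TPM (right), both on log axes, with 1 point per sham heart. Myh6 leads by counts with 585300 to 711982, Mb leads by TPM, and Nppa shows the widest gap between hearts among the genes drawn, from 4622 to 9768 TPM.

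A small part of the genome held most of the reads. The 10 highest genes took 11.4% of the counts, the 100 highest 28.6% and the 1000 highest 58.9%, and 566 genes together held 50% of them. Per kilobase the concentration was greater, with 278 genes holding 50% of the TPM. At the other end, 13146 genes reached 1 TPM and 134 reached 1000 TPM.

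Gene classes divided the libraries unevenly. The 42 sarcomere and Z-disc genes took 11.1%, 11.1%, 12.2% and 11.2% of the normalized counts in sham replicates 2, 3, 4 and 5, a mean of 11.4% ± 0.523. Nuclear-encoded subunits of the respiratory chain came next, with 4.67% ± 0.102 for 82 genes, followed by calcium handling with 3.77% ± 0.120 for 26 genes. Energy buffers and myoglobin held 2.46% ± 0.0836, fatty acid uptake and oxidation 2.44% ± 0.134, the citric acid cycle with pyruvate dehydrogenase 1.99% ± 0.0659, and glycolysis with glucose uptake 1.18% ± 0.0182. The 10 highest genes weighed most in the muscle classes. Without them, the sarcomere share was 5.87% and that of calcium handling 1.27%. In TPM the respiratory chain, whose transcripts are short, held 10.9% ± 0.221 against 14.1% ± 0.563 for the sarcomere. Mitochondrially encoded genes were not analysed here.

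Outside muscle and energy, most classes held under 1% of the counts, and they differed in how even they were between hearts. Heat shock proteins and chaperones held 1.11%, 1.05%, 1.09% and 1.15% of the counts in sham replicates 2, 3, 4 and 5, and the 44 collagens 0.769%, 0.868%, 0.570% and 0.813% in sham replicates 2, 3, 4 and 5. The collagen share was lowest in sham replicate 4, which had the highest sarcomere share. Other matrix genes held 0.838% ± 0.0691, ion channels and connexins 0.725% ± 0.0134, cytosolic ribosomal proteins 0.550% ± 0.0282 and basement membrane genes 0.337% ± 0.0130. The natriuretic peptides took 0.166%, 0.273%, 0.221% and 0.341%, lowest in sham replicate 2 and highest in sham replicate 5. Antigen presentation genes held 0.118% ± 0.0169, with B2m, the light chain of MHC class I, at 1270.1, 1469, 866 and 1429 TPM. In bulk tissue, fewer cells of a type and less RNA per cell cannot be told apart.

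**Figure D2:**
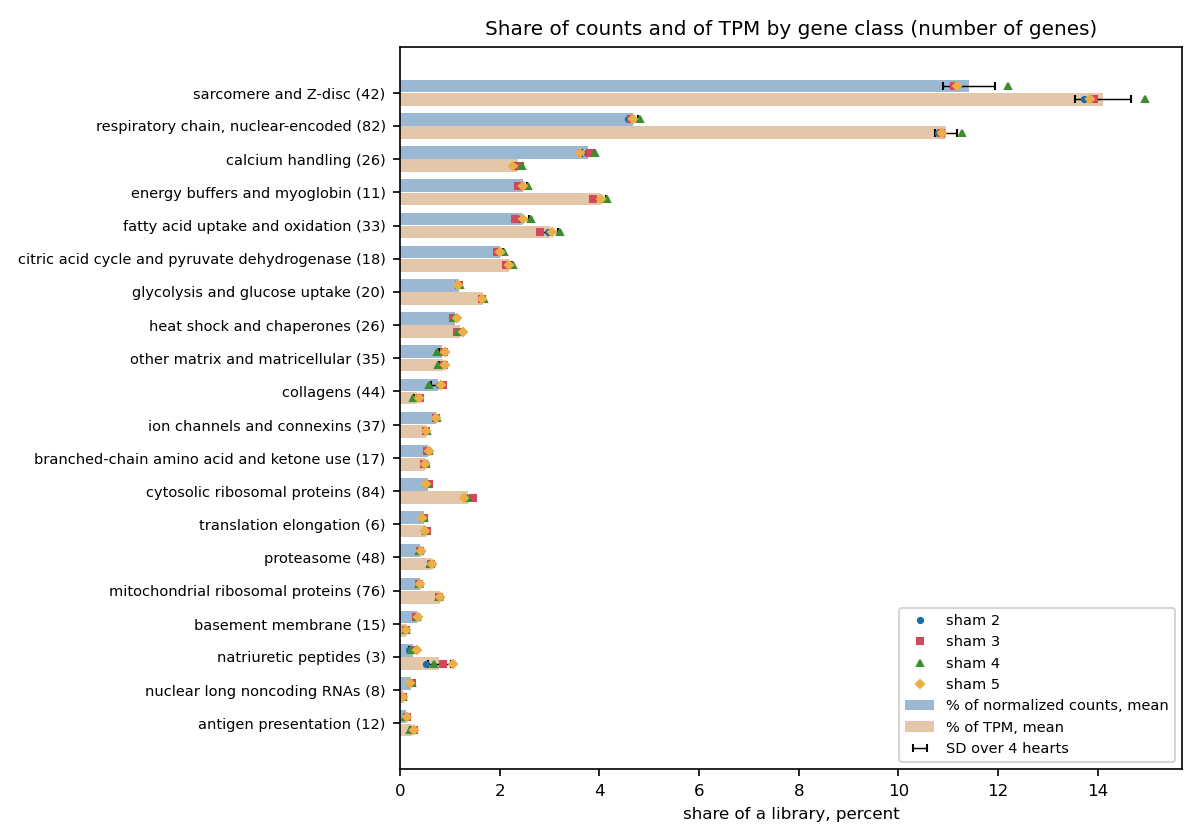
Share of each library held by 20 gene classes, in percent of normalized counts (blue bars) and of TPM (tan bars). Bars are means over 4 sham hearts, whiskers are SD, points are single hearts, and numbers after the names count the genes. The sarcomere leads on both scales, and sham replicate 4 is the highest heart for it.

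Cytosolic ribosomal proteins illustrate a limit of these values. Many have near-identical pseudogene copies, and a 61-base read that fits several places can be left uncounted, depending on settings that the sources do not give. The 20 ribosomal genes with under 10% of their 61-base windows in another gene had a median of 93.5 TPM, the 37 genes with 10% to 25% a median of 31.0 TPM, and the 27 genes above that a median of 26.5 TPM. Rplp1, of the ribosomal stalk, was the highest with 1119.7 TPM, and Rpl4 had 1014 TPM. Whether shared windows lowered the other genes was not tested. The glycolytic enzyme Gapdh, often used as a loading reference, had only 60.8, 69.2, 62.1 and 60.3 TPM, and 23.7% of its windows occur in other genes.

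Families of related genes were dominated by single members. Of 63 family lists with 293 measured genes, 28 had a member with at least 80% of the family's TPM and 13 a member with at least 95%. In 60 of them the highest member stood above the next one in all 4 hearts. The families without such an order included Cpt1b with Cpt1a and Timp3 with Timp2. With 4 hearts a two-sided exact sign-flip test cannot give a p under 1 in 8 and so cannot reach 0.05, and the ratios below are given with their SD and without a test. The 18 members with a mean under 5 normalized counts were Myh2, Myh3, Myh4 and Myh8 of skeletal and embryonic muscle, Tnnc2, Mybpc1, Nppc, Gja6, Gjb2, Gjb6, Gjd3, Scn8a, Agtr2, Fabp1, Col6a4, Lama1, Musk and Isl1.

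In the thick filament, Myh6 made up 91.9% of the myosin heavy chain TPM and Myh7, the slower beta chain, 5.90%. Myh7 had 762, 804, 910 and 716 TPM in sham replicates 2, 3, 4 and 5, against 12193, 11884, 13598 and 11934 TPM of Myh6. The log2 ratio of Myh7 to Myh6 was -3.96 ± 0.08, or 15.6-fold more Myh6, and was among the steadiest of the 30 ratios. Both genes are highest in sham replicate 4, and 16.7% of the Myh6 windows are shared with Myh7. Nonmuscle Myh9 had 112 TPM, smooth muscle Myh11 42.3 TPM and Myh7b 58.1 TPM.

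Light chains separate the chambers of the heart. The ventricular regulatory chain Myl2 held 47.7% of the light chain TPM and the ventricular essential chain Myl3 38.0%, while the atrial Myl7 and Myl4 held 6.92% and 4.09%. Myl7 had 1513, 3050, 1931 and 2378 TPM, and the log2 ratio of Myl7 to Myl2 was -2.82 ± 0.44. This SD was several times that of the Myh7 to Myh6 ratio, with sham replicate 3 highest and sham replicate 2 lowest. Sarcolipin (Sln), the atrial brake of the calcium pump, had 292, 549, 283 and 421 TPM, and its log2 ratio to phospholamban (Pln), the ventricular brake, was -4.39 ± 0.51.

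In the thin filament, Actc1 held 89.8% of the actin TPM and skeletal actin (Acta1), which stressed hearts raise, 5.66%. Acta1 had 1310, 1038, 1225 and 1418 TPM, and the log2 ratio of Acta1 to Actc1 was -4.00 ± 0.23. Cardiac troponin I (Tnni3) exceeded the slow skeletal form Tnni1, which precedes it in the fetal heart, 5320-fold on average. Tnni1 itself was low and uneven, at 1.29, 6.12, 1.94 and 1.97 TPM, with sham replicate 3 above the rest. Tnnt2 held 99.8% of the troponin T TPM, Tpm1 94.1% of the tropomyosins, Mybpc3 98.7% of myosin binding protein C and Actn2 91.6% of the alpha-actinins. Of the fast skeletal forms, Tnni2 had 2.62, Atp2a1 2.09 and Tnnt3 1.97 TPM, whereas Mybpc2 had 39.6 and Myl1 79.7 TPM.

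The calcium cycle used 1 main gene at most steps. Atp2a2 held 99.8% of the SERCA TPM, at 9383, 9540, 9563 and 8902 TPM, and Ryr2, the release channel, 99.4% of the ryanodine receptors, at 383 ± 13.8 TPM. The buffer Casq2 had 1338 ± 80.7 TPM and Hrc 1554 ± 54.8 TPM. The kinase CaMKII was shared between genes, with Camk2d holding 41.0%, Camk2g 33.5%, Camk2a 18.2% and Camk2b 7.35% of the family.

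Electrical genes lay at lower levels. Connexin 43 (Gja1), which couples ventricular cells, had 713, 648, 727 and 686 TPM, or 86.5% of the connexins, and connexin 40 (Gja5), found in atria and the conduction system, 13.6, 18.1, 13.9 and 16.4 TPM. Gja5 was thus higher in sham replicates 3 and 5 than in 2 and 4, as Myl7 was. Among inward rectifiers, Kcnj11 of the ATP-sensitive channel led with 184 ± 11.6 TPM, before Kcnj5 with 114 ± 9.68 TPM. The pacemaker channel Hcn2 had 34.0 ± 3.81 TPM and Hcn4, the main form of the sinus node, 3.53 ± 0.667 TPM.

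Receptors for the nerves and hormones of the heart were scarce transcripts. The beta-adrenergic receptor Adrb1 had 19.1, 20.95, 19.3 and 13.6 TPM, lowest in sham replicate 5. Adra1b led the alpha-adrenergic receptors with 31.96 ± 2.24 TPM, and Chrm2, which receives the vagal signal, had 48.5 ± 2.78 TPM. For endothelin and angiotensin, Ednra had 62.7 ± 6.88 TPM and Agtr1a 52.5 ± 7.15 TPM.

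Fuel genes came mainly in their heart or muscle isoforms. The insulin-responsive glucose carrier Slc2a4 had 503, 526, 532 and 505 TPM, 22.0-fold above Slc2a1, and the log2 ratio of Slc2a1 to Slc2a4 was -4.46 ± 0.07. Lactate dehydrogenase was mostly the heart form Ldhb, with 2500.3 ± 36.3 TPM against 936 ± 29.7 TPM of Ldha and a log2 ratio of Ldha to Ldhb of -1.42 ± 0.05. Hexokinase was nearly even, with Hk2 1.25-fold above Hk1 on average and higher in all 4 hearts. Muscle enolase Eno3 and muscle mutase Pgam2 held 99.7% of their families each. The other forms, Eno1 with 0.3801 TPM and Pgam1 with 5.96 TPM, share 24.6% and 35.6% of their windows with copies, so that their levels are uncertain.

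For fatty acids, lipoprotein lipase (Lpl) had 3960.2 ± 120 TPM, the cytosolic carrier Fabp3 2942 ± 223 TPM and the activating enzyme Acsl1 735 ± 41.9 TPM. Carnitine palmitoyltransferase, the gate to the mitochondrion, was split: Cpt1a, the form known from liver, had 44.7, 44.6, 54.7 and 44.4 TPM and Cpt1b, the muscle form, 49.4, 48.6, 53.4 and 48.4 TPM. The log2 ratio of Cpt1a to Cpt1b was -0.09 ± 0.08, with Cpt1a higher in 1 of 4 hearts. However, 94.8% of the exon bases of Cpt1b lie in another gene model on the same strand (Gm44502), so the level of Cpt1b and the ratio are uncertain. Pdk4, which shuts off glucose oxidation, had 213, 159, 299 and 221 TPM, highest in sham replicate 4, whereas Pdk2 had 608 ± 25.03 TPM.

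Muscle forms also led in the mitochondrion. Cox6a2 exceeded Cox6a1 18.1-fold, Cox8b exceeded Cox8a 9.46-fold, Cox7a1 exceeded Cox7a2 2.74-fold, and Slc25a4 exceeded Slc25a5 17.9-fold. These ratios had SDs of 0.05 to 0.09 on the log2 scale. Other genes hold 26.5% of the windows of Slc25a5, 26.7% of those of Fabp3, 16.2% of those of Ldhb and 12.9% of those of Gja5, so that their levels and ratios are uncertain. Among the regulators of these genes, Esrra had 187 ± 2.92 TPM, Ppara 121 ± 6.02 TPM and the coactivator Ppargc1a 64.3 ± 1.51 TPM. Nnt, a mitochondrial transhydrogenase that part of the C57BL/6 strains lack, had 855, 854, 990.4 and 890.2 TPM. Another gene model of the same name holds 46.6% of the Nnt windows, so that this level is uncertain too. Mitochondrial creatine kinase Ckmt2 held 64.9% and Ckm 33.6% of the creatine kinase TPM.

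In the matrix, type III collagen was the leading chain. Col3a1 had 1180, 1483, 811 and 1192 TPM, and Col1a1 408, 476, 264 and 455 TPM. Col3a1 was 2.92-fold above Col1a1, and their log2 ratio of 1.54 ± 0.11 varied far less than either gene, since both were lowest in sham replicate 4 and highest in sham replicate 3. Decorin (Dcn) led the small proteoglycans with 1710.1 ± 110 TPM, and laminin alpha 4 (Lama4) and alpha 2 (Lama2) were close, with 79.6 ± 4.43 and 71.7 ± 4.47 TPM and Lama4 higher in all 4 hearts. Periostin (Postn), made by activated fibroblasts, had 365, 252, 183 and 441 TPM.

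Agrin, the protein that the study gave to infarcted hearts, is a proteoglycan of basement membranes that binds dystroglycan. Its gene Agrn had 46.8, 44.2, 43.7 and 51.2 TPM in the sham hearts. Dag1, which encodes dystroglycan, had 322, 331, 328 and 334 TPM. By TPM sham replicate 5 was highest, as for Agrn. By normalized counts sham replicate 4 was highest for Dag1, with 16722 against 16474 in sham replicate 5. Lrp4, the agrin receptor of the neuromuscular junction, had 8.72 ± 0.144 TPM, and Musk, its partner kinase, was near 0. Yap1, a transcriptional coactivator restrained by the Hippo pathway, had 113.8, 104.7, 101.2 and 103.5 TPM, its relative Wwtr1 68.6 ± 2.55 TPM, and their DNA-binding partner Tead1 93.3 ± 9.66 TPM. For vessels, Vegfb exceeded Vegfa in all 4 hearts, with 433 ± 20.2 against 288 ± 11.3 TPM.

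**Figure D3:**
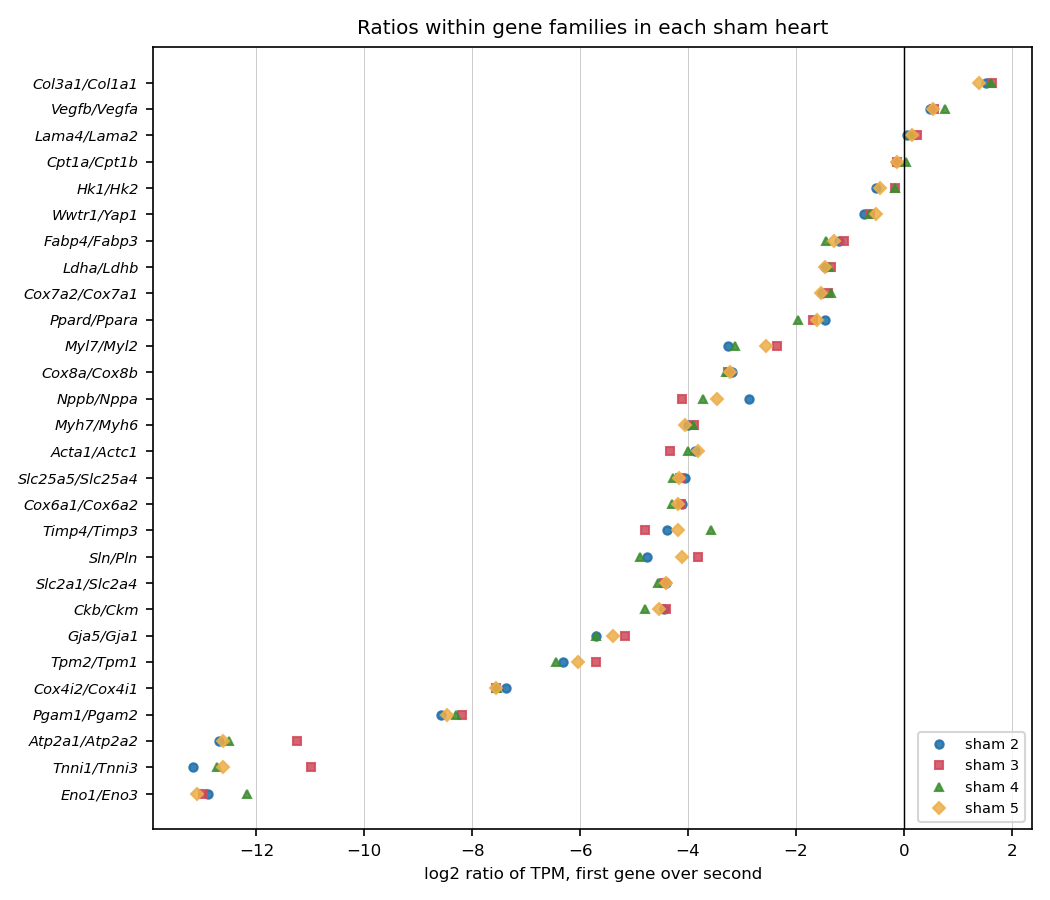
Log2 ratio of TPM between 2 members of a family in each of 4 sham hearts, for 28 of the 30 pairs, with 0 marking equal levels. Col3a1/Col1a1, Vegfb/Vegfa and Lama4/Lama2 lie above 0 in all hearts, Cpt1a/Cpt1b straddles it, and Myl7/Myl2, Sln/Pln and Nppb/Nppa spread more than most.

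Among transcription factors, Srf, which drives muscle genes, had 149 ± 9.93 TPM, Gata4 112 ± 6.94 TPM, Tbx20 66.3 ± 1.44 TPM and Nkx2-5 62.7 ± 2.79 TPM. Mef2a led the MEF2 factors with 70.2 ± 2.90 TPM. These genes varied little between the hearts.

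Spread between the hearts was small for most genes. The median coefficient of variation (CV) of normalized counts was 6.72% over the 12198 genes with a mean of at least 50. It exceeded 10% for 3535 genes, 20% for 956 and 50% for 68. Counting alone gives part of this spread, and an index of dispersion against the chi-square distribution with 3 degrees of freedom called 5634 of 14829 genes (38.0%) more variable than counting allows, at a Benjamini-Hochberg adjusted p below 0.05. The call followed depth: 15.2% of genes with means of 5 to 20 passed, against 56.7% with means of 1000 to 5000 and 99.2% above 20000. Between 1000 and 5000 normalized counts, the median CV was 4.79%, and its part beyond counting 4.15%.

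The steadiest genes by CV, among those with a mean of at least 1000, were Cdc42, Pcm1, Psmc6, Kdm2a, Larp4b, Zeb1, Tmem59, Parva, Cct3 and Stk24. Cdc42, a small GTPase of the cytoskeleton, had 5055, 5049.7, 5052 and 5060.4 normalized counts. This CV of 0.0918% was the lowest of the 4223 genes with such means and lay below the 1.43% that counting alone gives on average. Of the classes, the proteasome had the lowest median CV, 3.84% over 46 genes with a mean of at least 50, followed by calcium handling with 4.78% and mitochondrial ribosomal proteins with 4.86%. Natriuretic peptides, with 31.4% for 2 genes, antigen presentation, with 22.2% for 12, and collagens, with 17.0% for 29, had the highest.

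**Figure D4:**
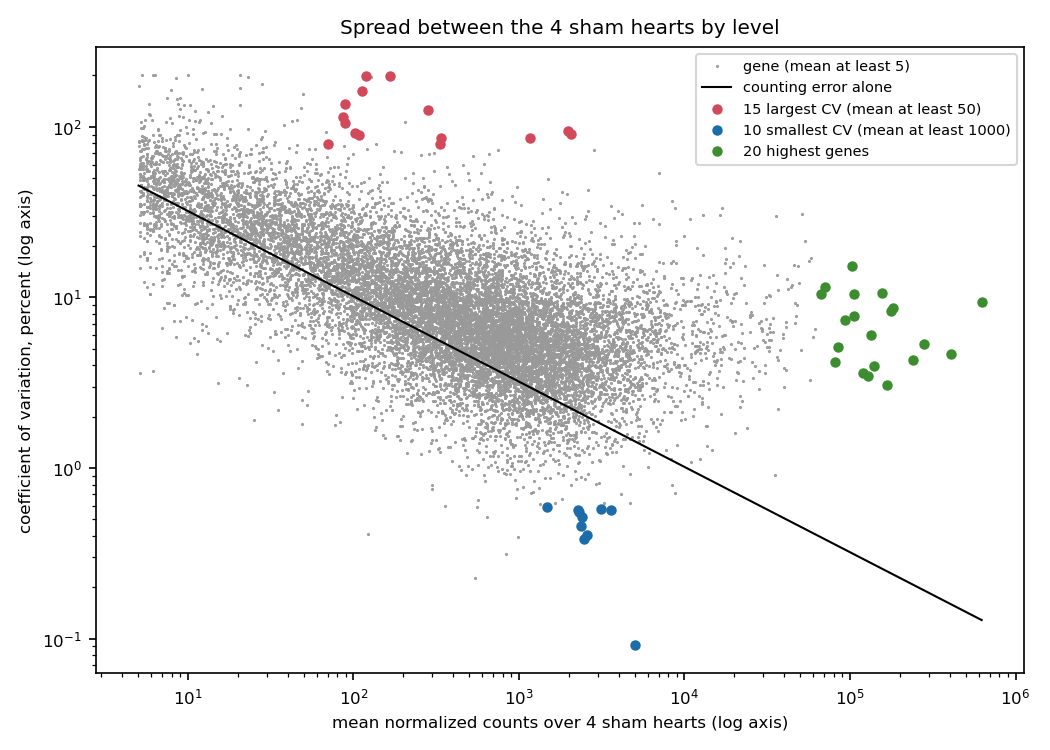
Coefficient of variation between 4 sham hearts against mean normalized counts for 14829 genes, on log axes, with the line that counting error alone would give. The highest genes lie far above that line and the 10 steadiest below it. The 15 most variable genes, without those of Gm, Rik or clone names, reach from 78.9% to 199%.

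Single hearts set the largest values. A gap of 1 heart from the other 3 beyond Dixon's 95% critical value was found for 820 of 14829 genes (5.53%), most often for sham replicate 4, with 159 genes high and 124 low. The most variable named genes fell into few patterns. Bpifa1 had 475, 1.06, 0 and 0 normalized counts and Scgb1a1 661, 1.06, 1.06 and 0 in sham replicates 2, 3, 4 and 5. Both encode secreted proteins of the airway lining, and both were high in sham replicate 2 alone.

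Other airway genes were looked up in a list of 20 drawn up after these values were seen. Of the 17 measured, Bpifa1 and Scgb1a1 had prompted the list, and 13 of the other 15 were highest in sham replicate 2, as were 21.9% of all genes with a mean of at least 5. The summed normalized counts of these 15 were 770.2, 59.6, 81.4 and 73.9. Scgb3a2 had 82.9 normalized counts in sham replicate 2 and 0 in the other hearts. Genes of the lung's air sacs did not follow to that extent, with summed normalized counts of 109, 85.2, 46.5 and 48.3, and Sftpc and Slc34a2, which mark the surfactant-making cells, were at 0 in all 4.

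Further genes singled out another heart or a pair. Ptprn2 (55.6, 389, 5.28 and 3.94 normalized counts) and Wnt4 (65.7, 230.0, 26.4 and 22.7) were highest in sham replicate 3. Schwann cell and neuron markers as a list were also highest there for 6 of 7 genes, with summed levels of 31.5, 56.0, 30.6 and 24.3 TPM. Cyfip2 had 1054, 1132, 4773 and 913 normalized counts, and Scin 66.7, 66.0, 251 and 46.3, with sham replicate 4 alone high in both. Alpk1 had 773.3, 185.2, 199.7 and 192.1 normalized counts, with sham replicate 2 alone high.

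Some genes split the hearts into pairs. Baiap2l1 had 423, 3591, 3778 and 446 normalized counts and Fggy 7.08, 168, 169 and 8.87, so that sham replicates 3 and 4 were high and 2 and 5 low in both. Iqcg had 16.2, 328, 769 and 15.8 normalized counts, the same pairing, but 52.8% of its exon bases overlap Lrch3 on the opposite strand. Over all 12198 genes, 9 were higher in sham replicates 3 and 4 than in the others by more than 2-fold, and 11 in sham replicates 2 and 3. Alox15, Cd207, Sprr1a and Bmp10 were also among the 15 most variable named genes.

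A ubiquitin gene marked sham replicate 3. Ubb, which encodes polyubiquitin, had 1344, 712, 1469.8 and 1335 normalized counts, and its copy Gm1821 had 2.02, 504, 3.17 and 4.93. Ubb was thus lowest, and the copy highest, in the same library. Gm1821 shares 76.4% of its 61-base windows with Ubb, and the cause of the shift was not tested.

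Atrial genes differed between the hearts more than ventricular ones. The 10 atrial markers summed to 7633, 13762, 9722 and 14421 TPM in sham replicates 2, 3, 4 and 5. Of the 10, 7 were lowest in sham replicate 2, as were 23.6% of all genes with a mean of at least 5. Nppa, whose level is uncertain, made up most of each sum and was highest in sham replicate 5. Myl7, Myl4 and Sln, the next by level, were highest in sham replicate 3. The 10 ventricular markers summed to 60883, 61735, 67751 and 59943 TPM. Bmp10, a growth factor made almost only by atrial muscle, had 9.10, 1672, 695 and 2257 normalized counts, so that it was nearly absent from sham replicate 2 and present in the rest. Nppa had 4622, 8018, 6354 and 9768 TPM, and brain natriuretic peptide (Nppb), which ventricles make under load, 633, 463, 479 and 887 TPM. The hearts ranked differently for both, and the log2 ratio of Nppb to Nppa was -3.54 ± 0.52. The part of the atrial marker level in the Nppa values was not tested.

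The 2 peptide genes lie close to each other on chromosome 4, and their promoters are shown because their ratio had one of the largest SDs of the 30 pairs. Capitals mark TATAAA, the TATA box, which was found on either strand in 15.7% of the 27025 genes with a RefSeq promoter window of 300 bases (250 before and 50 after the start, GRCm38.p6). It begins 9 bases before the annotated start of Nppa and 31 before that of Nppb. The windows are chr4:148000472-148000771 on the plus strand and chr4:147985650-147985949 on the plus strand.
Nppa: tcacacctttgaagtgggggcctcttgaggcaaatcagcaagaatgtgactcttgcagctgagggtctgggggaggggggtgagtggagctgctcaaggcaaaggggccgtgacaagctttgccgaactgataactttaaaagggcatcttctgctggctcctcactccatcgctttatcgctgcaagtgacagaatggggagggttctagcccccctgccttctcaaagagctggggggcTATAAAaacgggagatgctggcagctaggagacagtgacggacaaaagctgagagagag
Nppb: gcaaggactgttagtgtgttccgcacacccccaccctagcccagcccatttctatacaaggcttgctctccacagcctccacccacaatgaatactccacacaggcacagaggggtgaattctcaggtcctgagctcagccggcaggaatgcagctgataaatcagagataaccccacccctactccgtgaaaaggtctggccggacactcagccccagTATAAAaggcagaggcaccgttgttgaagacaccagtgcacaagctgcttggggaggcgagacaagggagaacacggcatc

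Blood and immune cells varied as well. Erythroid markers summed to 1144, 605, 419 and 126 TPM, led by the beta globin Beta-s with 1107, 585, 404 and 122 TPM. Another gene, Hbb-bt, holds 52.5% of the Beta-s windows, so that the Beta-s level and the sums are uncertain. The 3 erythroid markers with a mean of at least 5 were all highest in sham replicate 2 and lowest in sham replicate 5. Red cell transcripts were thus highest in sham replicate 2 and lowest in sham replicate 5, and the other hemoglobin genes were not analysed here apart from Hbb-b1, which had 12.1, 6.39, 6.34 and 0.99 normalized counts. B and plasma cell markers summed to 43.2, 48.3, 24.8 and 19.8 TPM, with Cd79b at 7.22, 5.17, 1.29 and 1.83 TPM. T and NK cell markers stayed low, at 12.19, 8.874, 5.997 and 9.385 TPM in sum. Macrophage markers were well above these, with 2209, 2285, 1682 and 2003 TPM in sum, led by Lyz2 with 1188 TPM and the complement gene C1qa with 209 TPM.

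Macrophage genes were low in sham replicate 4. Of 14 markers, 13 were lowest there, where 4183 of all 14829 genes (28.2%) were. The median deviation of the list from the mean of the 4 hearts was -0.32 in log2 in sham replicate 4, against 0.00 over all genes. C1qa had 234, 235, 148 and 219 TPM. Cd68 had 61.4, 52.4, 37.9 and 61.5 TPM, and the same heart was lowest for both. Endothelial markers summed to 2614, 2586, 2427 and 2569 TPM, with 3 of 14 lowest in sham replicate 4 as deposited and 8 of 14 after scaling to library totals. Their median deviation there was -0.01, or -0.06 after that scaling. The sums of pericyte and smooth muscle markers were 2651, 2555, 2685 and 2864 TPM. Most of each sum came from Des, with 1682, 1467, 1766 and 1815 TPM, so the sums say little about the other markers. Of the 12, 4 were lowest in sham replicate 4 as deposited and 5 after scaling to library totals.

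Interferon-stimulated genes, which cells switch on when STAT complexes bind their promoters, were low in sham replicate 4. Of 22 members, 21 were lowest in it, against 28.2% of all genes, and 20 were called beyond counting error, against 38.0% of all genes. The median CV was 22.8% against 8.07% over all genes with a mean of at least 5. Their summed level was 548, 580.1, 345 and 518 TPM in sham replicates 2, 3, 4 and 5. The median deviation was 0.15, 0.19, -0.52 and 0.06 in log2. The exception was Ifit2, an antiviral protein, with 628, 444, 471 and 551 normalized counts, lowest in sham replicate 3. Macrophage markers moved the same way between these hearts, and their part in the interferon values was not tested.

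The values of 4 members show the size of the differences. They are not the 4 with the largest CVs. Ifi44 (35.6%) and Mx1 (32.3%) varied more than Ifit1 (29.8%) and Isg15 (24.9%). Rsad2 (viperin) had 473, 254, 183 and 304 normalized counts, Ifit3 188, 145, 68.7 and 119. Another gene, Ifit3b, holds 46.6% of the Ifit3 windows, so that the Ifit3 level is uncertain. Ifit1, which binds viral RNA, had 204, 198, 95.1 and 181, and Isg15, a ubiquitin-like modifier, 152, 167, 88.8 and 153. Sham replicate 4 was lowest in each, while the highest heart was sham replicate 2 for the first 3 and sham replicate 3 for Isg15. Their promoters are printed because these genes moved together. Capitals mark the core of the interferon-stimulated response element, searched as GAAA repeated after a gap of 2 bases of any kind, on both strands, and the 3 matches of Isg15 overlap one another. These letters were in 11 of 16 listed interferon genes with a window (68.8%), in 0 of 19 genes of dividing cells and in 3.99% of all 27025 genes. The 4 printed windows are among the 11, whereas that of Ifi44 lacks the letters. A match describes the letters only and was not tested as a binding site. The windows are chr12:26456403-26456702 (minus strand) for Rsad2, chr19:34583279-34583578 (plus) for Ifit3, chr19:34640639-34640938 (plus) for Ifit1 and chr4:156200769-156201068 (minus) for Isg15.
Rsad2: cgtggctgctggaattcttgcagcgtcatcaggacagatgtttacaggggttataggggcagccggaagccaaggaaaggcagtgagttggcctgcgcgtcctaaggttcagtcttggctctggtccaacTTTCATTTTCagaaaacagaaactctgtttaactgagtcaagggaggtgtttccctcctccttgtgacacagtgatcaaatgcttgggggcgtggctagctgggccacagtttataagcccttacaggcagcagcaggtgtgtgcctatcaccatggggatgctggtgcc
Ifit3: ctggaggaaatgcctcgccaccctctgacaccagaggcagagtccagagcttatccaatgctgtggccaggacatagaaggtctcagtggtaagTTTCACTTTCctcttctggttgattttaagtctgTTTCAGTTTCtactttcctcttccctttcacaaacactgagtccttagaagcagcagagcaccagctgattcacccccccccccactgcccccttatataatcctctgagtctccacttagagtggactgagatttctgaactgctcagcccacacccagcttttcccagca
Ifit1: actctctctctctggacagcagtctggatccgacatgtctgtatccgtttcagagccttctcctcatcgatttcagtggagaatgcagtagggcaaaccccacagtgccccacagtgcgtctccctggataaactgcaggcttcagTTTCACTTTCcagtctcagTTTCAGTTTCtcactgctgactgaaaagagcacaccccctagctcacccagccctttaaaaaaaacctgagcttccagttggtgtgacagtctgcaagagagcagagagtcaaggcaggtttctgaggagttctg
Isg15: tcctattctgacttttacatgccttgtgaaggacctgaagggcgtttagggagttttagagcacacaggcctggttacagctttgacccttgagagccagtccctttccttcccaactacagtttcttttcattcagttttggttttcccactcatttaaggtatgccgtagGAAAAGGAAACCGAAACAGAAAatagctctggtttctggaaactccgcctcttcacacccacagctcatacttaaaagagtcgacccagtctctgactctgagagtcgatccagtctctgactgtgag

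Genes of dividing cells told sham replicates 3 and 4 apart. Of 23 members, 22 were highest in sham replicate 3 and 21 lowest in sham replicate 4, where 3850 (26.0%) and 4183 (28.2%) of the 14829 genes were. Their summed level was low in all hearts, at 141, 174, 97.1 and 138 TPM, and 18 of 23 were called beyond counting error, against 38.0% of all genes. Mki67, a marker of cycling cells, had 646, 776, 339 and 628 normalized counts. Top2a, which untangles DNA, had 367, 473, 197 and 374. Pcna, the replication clamp, was steady at 337.6, 370.5, 338.1 and 339.9, but 16.8% of its windows occur in another gene, so that its level is uncertain. Which cells carried these transcripts was not tested.

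The mitotic kinase Cdk1 had 122, 172, 67.6 and 122 normalized counts and the spindle motor Kif11 115, 154, 62.3 and 125. They had the largest CVs, 35.3% and 33.6%, among the members whose promoter windows hold the letters TTTGAA or TTCAAA, the cell cycle homology region. These were in 10 of 19 listed genes with a window (52.6%), in 5 of 16 interferon genes (31.2%) and in 20.2% of all genes. They are set in capitals in the windows chr10:69352863-69353162 (minus strand) for Cdk1 and chr19:37376132-37376431 (plus) for Kif11.
Cdk1: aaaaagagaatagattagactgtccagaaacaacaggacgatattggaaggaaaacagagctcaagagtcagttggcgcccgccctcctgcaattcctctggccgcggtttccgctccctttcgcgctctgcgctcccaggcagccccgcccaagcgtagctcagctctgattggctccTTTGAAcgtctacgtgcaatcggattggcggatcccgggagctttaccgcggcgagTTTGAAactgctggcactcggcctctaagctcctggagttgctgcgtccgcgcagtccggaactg
Kif11: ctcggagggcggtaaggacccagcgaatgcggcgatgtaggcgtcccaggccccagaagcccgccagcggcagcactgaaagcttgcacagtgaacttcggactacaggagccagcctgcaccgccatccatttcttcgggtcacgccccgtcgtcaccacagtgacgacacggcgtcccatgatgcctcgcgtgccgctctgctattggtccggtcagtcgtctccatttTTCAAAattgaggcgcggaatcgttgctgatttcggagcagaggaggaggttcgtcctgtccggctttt

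Matrix genes differed between sham replicates 4 and 5. Of 40 collagens with a mean of at least 5, 25 were highest in sham replicate 5 and 23 lowest in sham replicate 4, against 23.2% and 28.2% of all genes. Activated fibroblast genes summed to 1233, 1225, 888 and 1399 TPM, with 9 of 14 highest in sham replicate 5 and 8 lowest in sham replicate 4. Postn had 9623, 6667, 5145 and 11995 normalized counts, Meox1, a fibroblast transcription factor, 508, 334, 407 and 711, and Cthrc1 295, 310, 164 and 423. Of the 13 markers of fibroblasts at large, 9 were highest in sham replicate 3, as were 26.0% of all genes. Of the same markers, 1 was highest in sham replicate 5, and 7 were lowest in sham replicate 4. Dcn, next to Gsn in level among them, had 1753, 1836, 1672 and 1579 TPM, lowest in sham replicate 5. Ctgf, a matricellular gene that strain induces, had 4471, 3773, 5705 and 8150 normalized counts, also highest in sham replicate 5.

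Metabolic genes ran the other way. Of 82 respiratory chain subunits, 73 were highest in sham replicate 4 and 0 lowest in it, and 28 of 33 fatty acid genes were highest there and 23 lowest in sham replicate 3. Of all genes, 29.0% were highest in sham replicate 4 and 27.1% lowest in sham replicate 3. The shifts were small, as the median deviation in sham replicate 4 was 0.09 for the respiratory chain and 0.15 for fatty acid genes. Scaling each library to the same total left 56 of 82 and 25 of 33 highest in sham replicate 4, with 5 of the 82 then lowest in it. Ech1, an enzyme of fatty acid oxidation, had 2700, 2442, 3216 and 3145 TPM. Ucp3, an uncoupling protein that fasting induces in muscle, had 18.5, 18.6, 31.9 and 19.2 TPM, and sham replicate 4 was again the high heart.

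**Figure D5:**
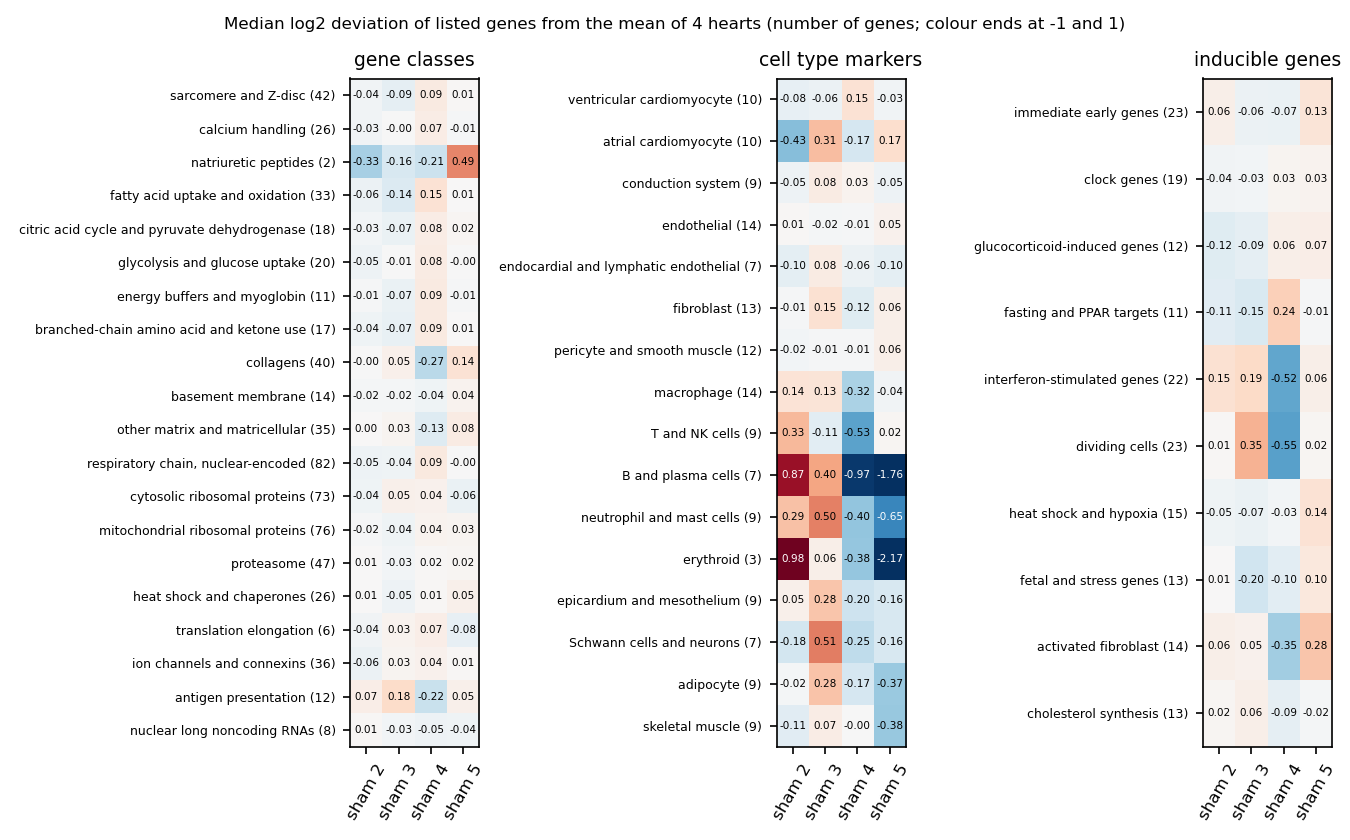
Median log2 deviation of listed genes from the mean of 4 sham hearts, by gene class, cell type marker list and inducible list, with the number of genes in brackets. Colour ends at -1 and 1. Sham replicate 4 is low for interferon-stimulated genes (-0.52) and dividing cells (-0.55), and B cell and erythroid markers span the widest range of the lists drawn.

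The remaining inducible lists were mixed. Clock genes had a median CV of 6.71% over 19 members, against 8.07% over all genes, with Per2, a repressor of the clock, at 433, 530.2, 534 and 671 normalized counts. Immediate early genes had a median CV of 13.4% over 23 members, and Fos had 188, 143, 116 and 133. Heat shock and hypoxia genes were highest in sham replicate 5 for 12 of 15 members, against 23.2% of all genes, among them Hspa1a, the inducible heat shock protein, with 44.5, 31.9, 62.3 and 79.8 and the oxygen sensor Egln3 with 2390, 2663, 1657 and 3512. Other genes, mainly Hspa1b, hold 57.6% of the Hspa1a windows, so that the Hspa1a level is uncertain. Glucocorticoid-induced genes did not single out a heart, as 5 of 12 were highest in sham replicate 5 and 4 in sham replicate 4 (6 and 2 after scaling to library totals). Of the 12, 6 were lowest in sham replicate 2 and 5 in sham replicate 3, against 23.6% and 27.1% of all genes. After scaling to library totals these were 5 and 4. Beyond counting error were 11 of the 12, against 38.0% of all genes. The transcripts of cholesterol synthesis lay near all genes, with a median CV of 7.42% and 4 of 13 (30.8%) called beyond counting error.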

How the data were processed

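Poly-A RNA of 4 sham hearts was sequenced as 61 bp single reads. In the deposited table, each signal value is the normalized count of a gene in a library, per the file headers, rounded by the authors to 2 decimals. The submitters' processing notes name the mm10 build and the tools STAR 2.4.2a, DESeq2 1.10.1, HTSeq and cutadapt. The sources do not give their roles, the annotation or the strand setting. Values of a library were whole multiples of the worth of 1 read, and dividing by it gave the reads (99.99% to 100% of values whole within 0.0055 normalized counts).

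Symbols were matched to GENCODE M21 gene models (15210 by symbol, 857 by a synonym, 151 not matched), and TPM used the summed exon length. Genes with a mean of at least 5 were tested for spread beyond counting by the index of dispersion with Benjamini-Hochberg adjustment at 0.05, which takes reads as independent and covers counting error only. The step was tested on simulated data. CVs are given for means of at least 50. Promoter letters were read from RefSeq windows of GRCm38.p6. The 20 classes, 63 families, 30 ratio pairs, 18 marker lists and 10 inducible lists, and the choice of these hearts, were made with earlier results of these data known. Named genes were the 20 highest by counts and by TPM, up to 4 members per list by level or CV, the 15 largest CVs (mean of at least 50) and 10 smallest CVs (mean of at least 1000), the family leaders, members under 5 and the study's genes (Postn, Col3a1, Col1a1, Myh7, Myh6, Nppb, Nppa, Yap1, Dag1 and Agrn). The 15 largest CVs leave out genes with Gm, Rik or clone names, such as Gm1821 with a CV of 195%. The airway, alveolar and ubiquitin genes, Gapdh, Nnt, Hbb-b1 and further list members were chosen after their values were seen. Some genes are not reported here. Each heart was left out in turn, and other lengths, totals, filters and scalings were tried. Python 3.11.15, numpy 2.4.6, pandas 2.3.3, scipy 1.17.1 and matplotlib 3.10.9 were used.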

Additional observations from a re-analysis of the deposited data

Results flagged for a closer look

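For 110 values, each heart's gap from the nearest of the others was set against the range of the 4, and 14 exceeded Dixon's 95% critical value. Of these, 6 were among the 15 genes chosen for the largest CV between the same hearts, which favours such gaps, and 8 among the other 95 values. Chance alone sets apart about 1 in 20 groups by this measure, and 820 of 14829 genes (5.53%) passed it. In sham replicate 4, the sarcomere share of 12.2% was high, as were Myh6 with 711982, Tpm1 with 175277, Ogdh with 90862 and Tnnc1 with 70704 normalized counts, and also Cyfip2 with 4773 and Scin with 251. The log2 ratio of Cpt1a to Cpt1b, 0.0359, was highest in the same heart. Sham replicate 2 stood apart for Bpifa1 with 475, Scgb1a1 with 661 and Alpk1 with 773 normalized counts, and for the log2 ratio of Cox4i2 to Cox4i1, -7.38. Sham replicate 3 stood apart for Ptprn2 with 389 normalized counts and for the log2 ratio of Atp2a1 to Atp2a2, -11.25. Why these hearts differ was not tested.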

How the results depend on the processing

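No paired analysis was possible because only the sham group was analysed. Divided by exon length, shares were 14.1% for the sarcomere, 2.37% for calcium handling, 3.00% for fatty acid genes, 2.18% for the citric acid cycle, 1.66% for glycolysis, 4.02% for energy buffers, 10.9% for the respiratory chain and 1.19% for chaperones, and 278 genes in place of 566 held 50%. Without the 10 highest genes the same shares were 5.87%, 1.27%, 2.07%, 2.25%, 1.33%, 1.35%, 4.55% and 1.24%. Ratios turned round without length scaling for Cpt1a to Cpt1b (0.49), Lama4 to Lama2 (-0.55) and Vegfb to Vegfa (-0.87). Without it, Myl7 to Myl2 was -3.90, Sln to Pln -5.46, Ldha to Ldhb -0.88 and Slc2a1 to Slc2a4 -4.24, and with the longest transcript Myl7 to Myl2 was -3.31, Ldha to Ldhb -1.36 and Slc2a1 to Slc2a4 -4.61. The median CV was 8.07% from a mean of 5.

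Leaving out each heart gave a median CV of 5.87% to 6.69%, 3919 to 4928 genes beyond counting and 556 to 582 genes with 50% of the counts. Shares ran from 11.2% to 11.5% for the sarcomere, 3.72% to 3.82% for calcium handling, 2.38% to 2.49% for fatty acid genes, 1.96% to 2.01% for the citric acid cycle, 1.17% to 1.18% for glycolysis, 2.42% to 2.49% for energy buffers, 4.62% to 4.70% for the respiratory chain and 1.08% to 1.12% for chaperones. Ratios ran from -3.99 to -3.93 for Myh7 to Myh6, -2.98 to -2.68 for Myl7 to Myl2, -4.06 to -3.89 for Acta1 to Actc1, -4.59 to -4.23 for Sln to Pln, -0.13 to -0.07 for Cpt1a to Cpt1b, -1.44 to -1.40 for Ldha to Ldhb, -4.47 to -4.42 for Slc2a1 to Slc2a4 and 1.51 to 1.60 for Col3a1 to Col1a1. Without the high heart, the CV of Alpk1 was 3.76%, of Cyfip2 10.7% and of Scin 19.4%, and without sham replicate 2 that of Bmp10 was 51.2%. Under both other scalings, an alternative chosen after seeing the data, the list counts given stayed within 1.5 times, with exceptions under library totals. Library totals put 2 in place of 4 glucocorticoid-induced genes highest, and 5 in place of 0 respiratory chain genes lowest, in sham replicate 4. They also put 8 in place of 3 endothelial markers lowest in that heart. In sham replicate 5, 2 in place of 1 of the fibroblast markers were then highest. Low genes are limited by depth, and tissue shares by bulk RNA.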
